A study of Homo sapiens with 2 samples.

Results

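The 9 genes described here encode enzymes that remove R-loops or relax DNA: RNASEH1, RNASEH2A, RNASEH2B, RNASEH2C, AQR, DHX9, DDX5, TOP1 and TOP2A. They were taken by name, and every anti-Flag peak within 10 kb of the span of each gene in RefSeq was collected. This gave 19 peaks of the 54389 in the list, and 9 genes of the 15843 protein-coding genes for which a transcription start was listed.

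The study addressed the genome-wide binding of ETV4, an ETS family transcription factor of the PEA3 group. The experiment had 1 anti-Flag immunoprecipitate and 1 input library. Both were A549, an established human lung adenocarcinoma line. The cells (A549-shETV4) carried an shRNA against ETV4 and were transfected with Flag-tagged ETV4, so the antibody was directed at the exogenous protein. No library came from cells without Flag-ETV4, so antibody signal that does not depend on Flag-ETV4 cannot be told apart. The antibody is from Sigma in the labels and from CST in the study's methods. There were no replicates, so no SD and no test between conditions can be given. Intervals printed below on pileups and folds cover counting error only.

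An R-loop is a hybrid of nascent RNA with its template DNA strand that leaves the other strand unpaired. RNase H1 and RNase H2 cut the RNA of such hybrids, helicases such as Aquarius, DHX9 and DDX5 unwind them, and topoisomerase I relaxes the negative supercoils behind RNA polymerase in which they form. Topoisomerase I is also the target of camptothecin, the drug with which the study induced R-loops and DNA breaks.

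A peak lay within 10 kb of 8 of the 9 genes, against 83.0% of the 15843 protein-coding genes. The same 8 genes had a peak within 1 kb of a RefSeq transcription start, against 64.4% of all protein-coding genes. These are called start peaks below. The fold enrichment at the summit exceeded 10 in the start peaks of 7 genes, against 47.0% of all protein-coding genes. RNASEH1 had the highest start peak, followed by DDX5, TOP1, AQR, RNASEH2C, DHX9, RNASEH2B and TOP2A. RNASEH2A was the gene without any peak. Fold enrichment is the authors' value: the fragments piled up at the summit plus 1, over the level expected from the input plus 1. Over the 9 genes the median start fold was 22.3, with RNASEH2A counted as 0, and over all 15843 genes it was 8.72 when counted in the same way. The medians were closer among genes with a start peak only, at 23.2 over the 8 members and 17.8 over all 10200 such genes. The wider gap thus includes the difference in the share of genes with a start peak.

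The reference sequences around 6 of the starts are shown because their letters can be set beside the summits: AQR, RNASEH1, RNASEH2C and DDX5 had the summit of the start peak inside the window, RNASEH2A had no peak, and TOP1 holds a primer of the study's ChIP-qPCR. Each is a RefSeq window on GRCh38.p14 of 300 bases, from 250 bases before the first listed start to 50 bases from it on, on the strand of the gene. Capitals mark each GGAA, the core that ETS factors contact, or its reverse complement TTCC. The windows are chr15:34969693-34969992 on the minus strand for AQR, chr2:3558284-3558583 minus for RNASEH1, chr11:65720749-65721048 minus for RNASEH2C, chr17:64506589-64506888 minus for DDX5, chr19:12806334-12806633 plus for RNASEH2A and chr20:41028572-41028871 plus for TOP1.
AQR: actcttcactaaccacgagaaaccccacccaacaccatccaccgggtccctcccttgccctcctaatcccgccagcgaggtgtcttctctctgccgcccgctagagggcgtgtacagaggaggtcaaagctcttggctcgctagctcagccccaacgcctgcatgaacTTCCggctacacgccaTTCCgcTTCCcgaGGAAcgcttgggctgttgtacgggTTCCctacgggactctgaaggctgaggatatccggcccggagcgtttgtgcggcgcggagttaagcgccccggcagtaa
RNASEH1: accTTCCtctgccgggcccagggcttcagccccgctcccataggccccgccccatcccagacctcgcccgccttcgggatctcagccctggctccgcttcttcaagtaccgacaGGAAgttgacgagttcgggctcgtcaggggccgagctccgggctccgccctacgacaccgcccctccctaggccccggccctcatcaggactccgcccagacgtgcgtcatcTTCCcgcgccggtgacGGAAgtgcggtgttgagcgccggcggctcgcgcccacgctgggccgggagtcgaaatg
RNASEH2C: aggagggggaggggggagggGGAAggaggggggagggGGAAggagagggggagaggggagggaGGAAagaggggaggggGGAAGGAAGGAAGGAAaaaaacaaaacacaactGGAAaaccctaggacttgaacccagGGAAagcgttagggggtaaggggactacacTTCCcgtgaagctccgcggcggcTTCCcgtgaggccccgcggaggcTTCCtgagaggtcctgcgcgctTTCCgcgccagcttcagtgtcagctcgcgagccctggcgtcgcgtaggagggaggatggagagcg
DDX5: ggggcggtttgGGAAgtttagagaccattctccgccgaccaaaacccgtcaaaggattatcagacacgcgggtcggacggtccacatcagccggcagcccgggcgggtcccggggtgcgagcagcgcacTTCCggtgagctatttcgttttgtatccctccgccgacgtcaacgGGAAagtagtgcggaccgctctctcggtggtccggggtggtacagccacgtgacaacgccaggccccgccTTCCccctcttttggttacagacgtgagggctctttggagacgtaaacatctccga
RNASEH2A: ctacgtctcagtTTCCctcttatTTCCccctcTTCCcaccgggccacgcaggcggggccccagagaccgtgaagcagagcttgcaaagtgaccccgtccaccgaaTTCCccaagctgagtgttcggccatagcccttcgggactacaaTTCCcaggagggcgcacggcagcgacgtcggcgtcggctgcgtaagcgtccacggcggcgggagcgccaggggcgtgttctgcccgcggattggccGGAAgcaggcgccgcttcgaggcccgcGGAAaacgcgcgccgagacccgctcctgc
TOP1: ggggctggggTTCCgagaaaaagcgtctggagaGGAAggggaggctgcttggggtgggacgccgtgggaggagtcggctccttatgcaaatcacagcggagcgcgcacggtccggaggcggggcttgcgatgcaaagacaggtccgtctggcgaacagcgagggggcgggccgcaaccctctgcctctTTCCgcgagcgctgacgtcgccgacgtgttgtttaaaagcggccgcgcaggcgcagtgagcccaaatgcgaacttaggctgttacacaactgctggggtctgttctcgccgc

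GGAA was present on either strand of all 9 promoter windows, and of 95.1% of the windows of all protein-coding genes. The longer CCGGAA, a form with the flank that many ETS factors prefer, was present in 3 of the 9 windows, those of AQR, DDX5 and RNASEH2A, against 22.9% of all windows. Extended to CCGGAAGT it remained in AQR and DDX5, against 6.19% of all windows. AGGAAG, an alternative form, was found in 4 windows, those of RNASEH1, RNASEH2C, TOP1 and TOP2A, against 33.5% of all. These forms overlap, since each contains GGAA. Distances from a summit to the nearest GGAA are given below without a comparison over all genes. Because GGAA is so frequent, a short distance does not show binding at that core.

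**Figure D1:**
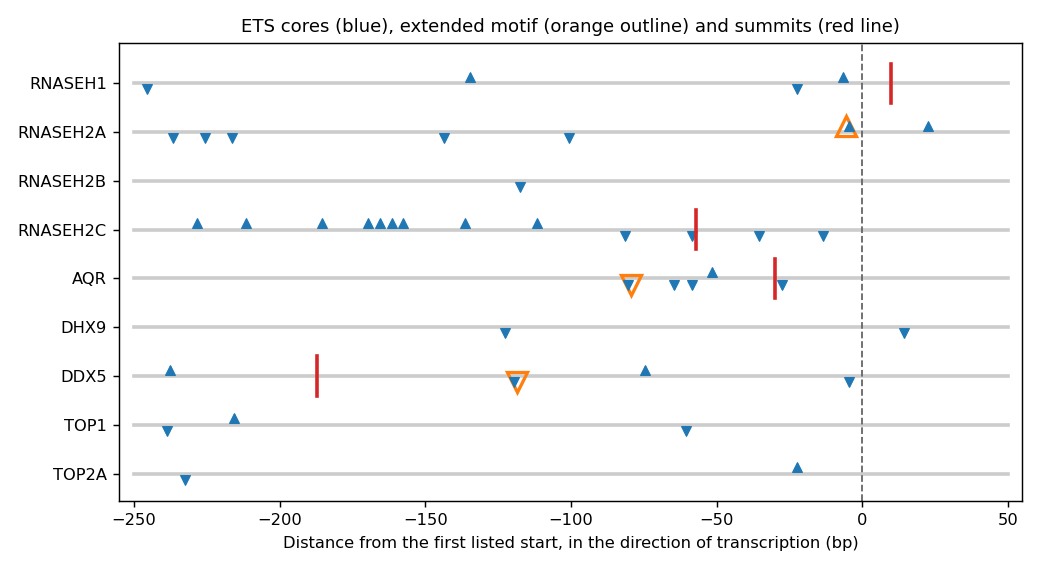
Matches to the ETS core (blue triangles, up on the gene strand and down on the other), the extended CCGGAA motif (orange outlines) and the summits of start peaks (red lines) in the 300-base windows of the 9 genes, against the distance from the first listed start in bp. Summits of 4 genes fall in their window, and RNASEH2A has an extended motif at the start but no summit.

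RNASEH1, on chromosome 2 from 3531813 to 3558333 and transcribed from the minus strand, encodes the RNase H that acts on hybrids in the nucleus and in mitochondria. Its start peak from 3557858 to 3558927 had a fold of 68.5 with a −log10 q of 264. At the summit 161 fragments were piled up, with an exact Poisson 95% confidence interval of 137 to 188, and the control level was 1.37 fragments. Among the 10200 protein-coding genes with a start peak, this fold was at the 97.5th percentile. The summit at 3558323 was 10 bp inside the gene, and the nearest GGAA was 15 bp from it, in the stretch upstream of the start shown above. RNASEH1-DT, a long noncoding RNA read in the opposite direction, starts 63 bp from the same summit.

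The other 3 peaks of RNASEH1 were all weaker. At 1466 bp into the gene, a peak from 3556626 to 3557110 reached a fold of 19.0 and a pileup of 50 fragments. A peak 2137 bp upstream, inside RNASEH1-DT, had a fold of 10.4 and a pileup of 27 fragments. The peak 10186 bp inside the gene had a fold of 5.70 and a pileup of 22 fragments (13.8 to 33.3). RNASEH1 was 1 of 3 members with 4 peaks within 10 kb of the span, together with RNASEH2B and TOP1, while 22.9% of protein-coding genes had 4 or more.

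The RNase H2 genes encode the catalytic subunit A and the accessory subunits B and C of a single enzyme, and differed in their peaks. RNASEH2A, on chromosome 19 from 12806584 to 12813640, had no peak within 10 kb, as did 17.0% of protein-coding genes. The nearest peak on the upstream side ended 12286 bp before the gene. It was a peak of 5557 bp from 12788742 to 12794298 with a fold of 54.6, and its summit fell 494 bp past the end of JUNB, which encodes a subunit of AP-1. On the downstream side the nearest peak was 18701 bp away, with a fold of 17.5 and a summit inside RTBDN-AS1. The stretch of 38042 bp between these peaks also held all of PRDX2 and THSD8.

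The promoter of RNASEH2A holds 7 GGAA cores, including a CCGGAA whose first base is 8 bp before the start. Across all protein-coding genes, 84.8% of the 3621 windows with CCGGAA had a start peak (Wilson 95% confidence interval 83.6% to 85.9%), against 58.3% of the 12222 windows without it (57.5% to 59.2%). RNASEH2A was therefore among the minority of genes with these letters and no peak. The Wilson intervals treat genes as independent draws and do not cover variation between immunoprecipitates. The windows with CCGGAA also had more CpG, with a median of 26 against 19, and the part of this in the difference was not tested. The other forms varied in this comparison. For CCGGAAGT, 91.4% of windows with it and 62.6% without it had a start peak. For GGAA the shares were 64.3% with and 65.1% without, and for AGGAAG 62.3% and 65.4%. The lowest fold in the whole list was 2.34 and the lowest pileup 6 fragments. The control level at RNASEH2A is not given by a peak list, so the smallest enrichment that would have been listed there is unknown, and the absence of a peak says only that none passed the threshold at this depth.

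RNASEH2B, on chromosome 13 from 50909678 to 50970460, had a start peak from 50909630 to 50910825 with a fold of 13.0. Its summit held 34 fragments (23.5 to 47.5), and the control level there was 1.69. The summit lay 669 bp downstream of the nearest start of RNASEH2B, and was closer to the start of RNASEH2B-AS1, an antisense long noncoding RNA, at 252 bp. A far stronger peak lay beyond the other end of the gene. The interval from 50974159 to 50974846 had a fold of 81.9, a −log10 q of 321 and a pileup of 186 fragments (160 to 215), and its summit was 4076 bp past the 3′ end of RNASEH2B, which was the nearest end of any RefSeq gene.

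This was the highest fold among the 19 peaks and at the 98.2th percentile of all peaks. It was 6.29 times the fold at the start of the gene. The pileup was 5.47 times that at the start, and the pileup intervals of both peaks did not overlap. The control level was 1.28 at this peak, the lowest level in the whole list, against 1.69 at the start peak. Of the 3401 protein-coding genes with a start peak and a summit within 10 kb past the 3′ end, 41.0% had the higher fold past the 3′ end. A fold ratio at least as high as that of RNASEH2B was found in 3.73%. The remaining peaks of RNASEH2B were weak. The peak 7145 bp downstream of the nearest start had a fold of 2.97 with a −log10 q of 2.28 and a pileup of 12 fragments. The peak 8930 bp past the 3′ end had a fold of 6.57 and a pileup of 14 fragments.

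RNASEH2C, on chromosome 11 from 65717673 to 65720798 on the minus strand, had a start peak from 65719776 to 65721143 with a fold of 22.3 and a −log10 q of 66.1. The summit held 59 fragments (44.9 to 76.1) over a control level of 1.69. The summit was 57 bp upstream of the start and fell within a GGAA core of the other strand. The window of RNASEH2C held 13 such cores, 9 of them on the gene strand and all of these upstream of the summit. A peak at the other side of this short gene, with a fold of 22.8 and a pileup of 77 fragments, had its summit 17 bp from a start of KAT5, which encodes the acetyltransferase TIP60. The near edge of this peak was 4984 bp from the 3′ end of RNASEH2C.

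**Figure D2:**
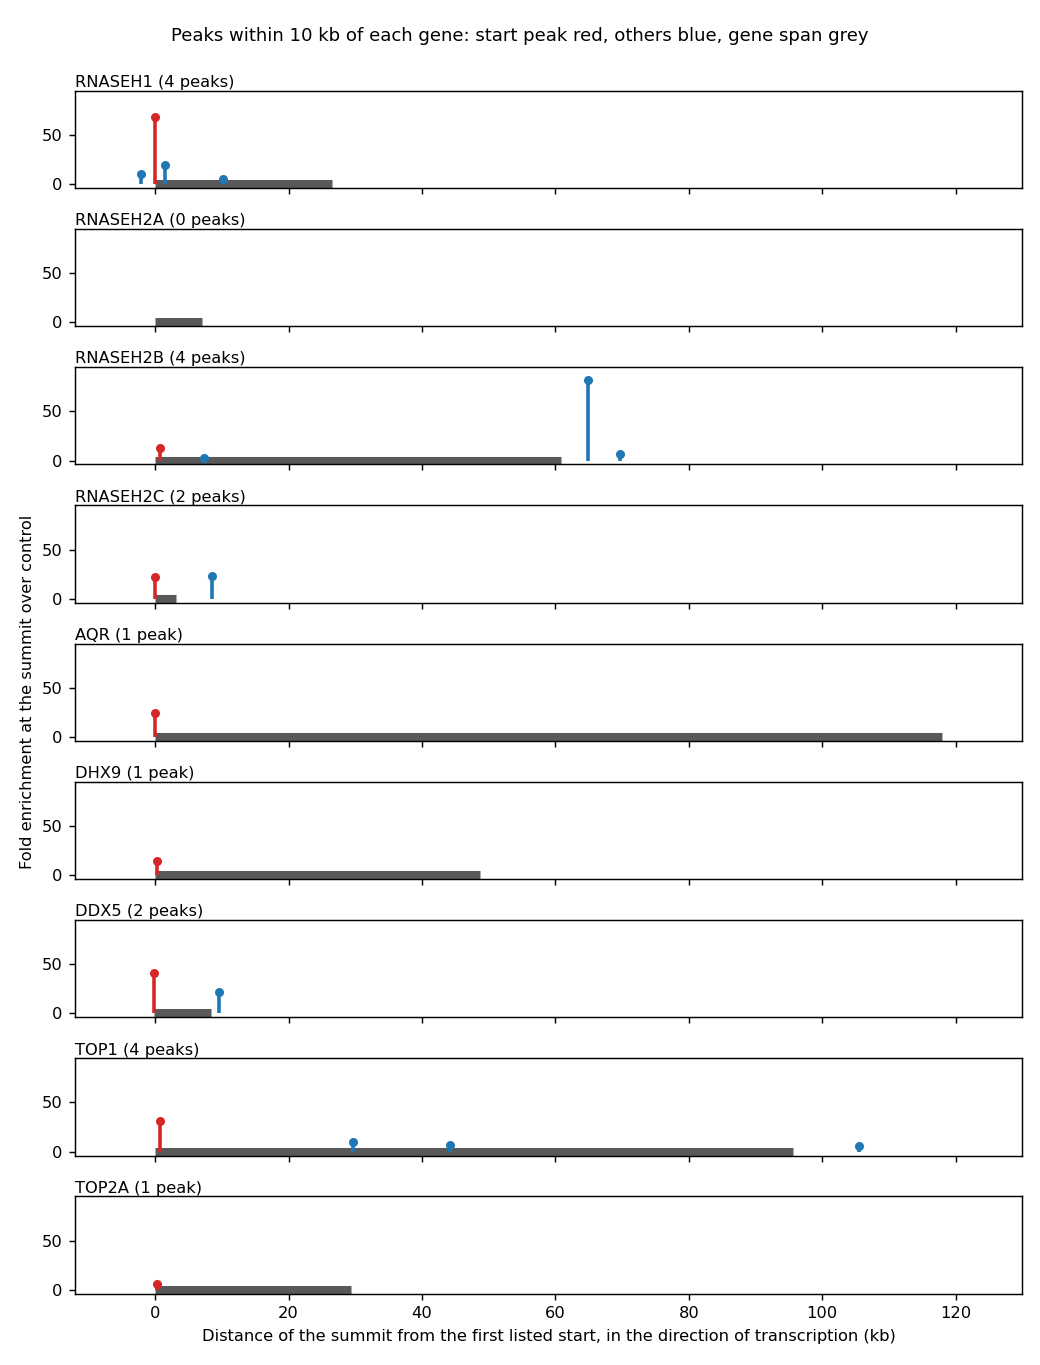
Fold enrichment of every peak within 10 kb of the 9 genes, against the distance of its summit in kb from the first listed start in the direction of transcription. The peak of 81.9 past the end of RNASEH2B exceeds the start peak of that gene, AQR has 1 peak over its whole length, and RNASEH2A has none.

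AQR encodes Aquarius, an RNA helicase of the spliceosome that also limits R-loops. It is the longest of the 9 genes, 117961 bp on chromosome 15 from 34851782 to 34969742, and had a single peak. This peak, from 34969454 to 34970024, had a fold of 24.0 and a −log10 q of 111. Its summit, 30 bp before the start, held 104 fragments (85.0 to 126) where the control level was 3.38. The nearest GGAA was 1 bp from it, on the other strand, and the CCGGAA of this window was 47 bp away. Protein-coding genes at least as long as AQR, of which there were 2281, had a median of 4 peaks within 10 kb of their span, and 18.9% of them had 1 or none. With a width of 571 bp the peak was the narrowest of the 8 start peaks.

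DHX9, or RNA helicase A, lies on chromosome 1 from 182839347 to 182887982 and also had a single peak. From 182839018 to 182839958, it had a fold of 14.2 and a −log10 q of 35.7, from 39 fragments (27.7 to 53.3) over a control level of 1.82. Its summit was 336 bp downstream of the start of DHX9 and closer, at 92 bp, to the start of the antisense gene DHX9-AS1. The nearest GGAA in the DHX9-AS1 window was 11 bp from the summit.

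DDX5, the DEAD-box helicase p68 on chromosome 17 from 64498254 to 64506866, had the widest start peak. It spanned 2366 bp from 64504955 to 64507320, wider than 94.2% of the start peaks of protein-coding genes, and covered all 3 listed starts. The fold was 41.4 with a −log10 q of 217, and the 166 fragments at its summit (142 to 193) were the most of the 8 start peaks, with the control at 3.04. The summit was inside the RefSeq span of DDX5, 41 bp from its 5′ end, but at -187 bp relative to the first listed start. It was 152 bp from the start of CEP95, a centrosomal protein gene transcribed the other way. The nearest GGAA was 49 bp from the summit. The CCGGAAGT of the window shown above was on the other strand and its CCGGAA lay 66 bp from the summit. The other peak of DDX5 had a fold of 21.7 and a pileup of 94 fragments, and its summit was 88 bp from the start of POLG2, the accessory subunit of the mitochondrial DNA polymerase.

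TOP1, on chromosome 20 from 41028822 to 41124487, had a start peak from 41028366 to 41029919 with a fold of 31.0. The summit held 124 fragments (103 to 148) with the control at 3.04, and among start peaks of protein-coding genes the fold was at the 75.3th percentile. The summit lay 673 bp inside the gene, the farthest from a listed start among the 8 genes, so no letters at the summit could be read from the window above. TOP1 was a replication initiation locus of the study's ChIP-qPCR. The forward primer of that assay matched the window from 41028813 to 41028832, from 9 bp before to 10 bp after the start. It is shown here to place this primer, not the whole assay, on the peak.
forward primer: cagtgagcccaaatgcgaac

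The primer was inside the peak, 447 bp from its upstream edge and 663 bp from the summit. The reverse primer had no match within the 300 bases. Inside the gene, a peak 29723 bp from the start had a fold of 9.34 and a pileup of 31 fragments, and a peak 44132 bp from the start had a fold of 6.79 and a pileup of 18 fragments, closer to an end of PLCG1-AS1, at 25040 bp, than to one of TOP1. The last, 9796 bp past the 3′ end and 440 bp from an end of LOC124904903, had a fold of 5.35 and a pileup of 17 fragments. All 3 were below the median fold of the whole list, 9.63.

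TOP2A, topoisomerase II alpha, which decatenates sister chromatids and is expressed in proliferating cells, lies on chromosome 17 from 40388525 to 40417896 on the minus strand. Its single peak, from 40417229 to 40417841, had a fold of 6.37 and a −log10 q of 14.6. The pileup of 29 fragments (19.4 to 41.6) was the lowest of the 8 start peaks and the control level, 3.71, the highest. The fold was at the 13.5th percentile of the start peaks of protein-coding genes. The interval began 55 bp downstream of the start and its summit was 259 bp inside the gene, so this was the start peak that did not cover a listed start, whereas the other 7 did.

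**Figure D3:**
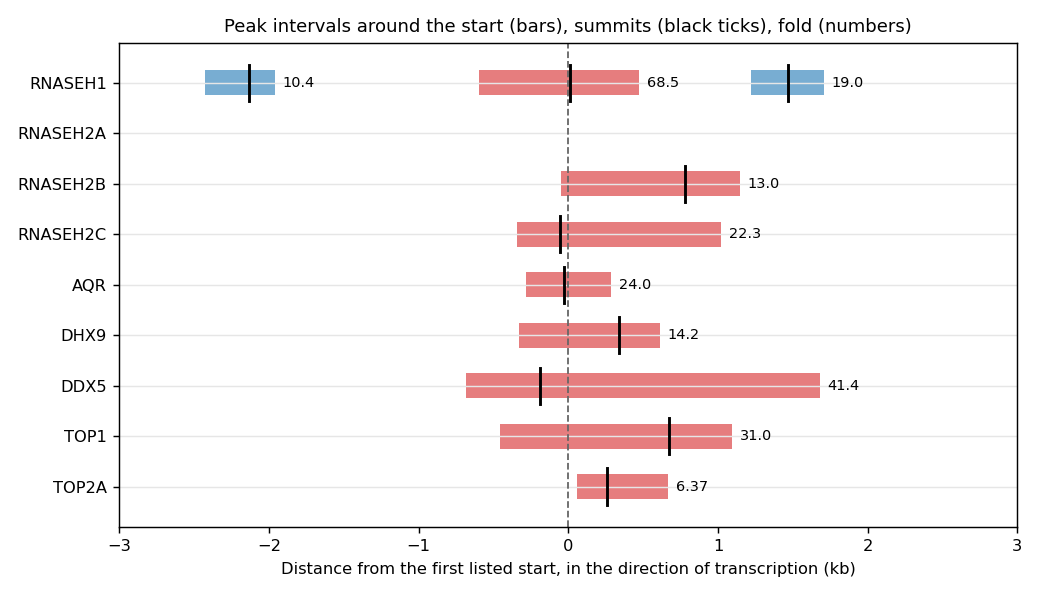
Peak intervals within 3 kb of the first listed start of each gene, with start peaks in red, other peaks in blue, summits as black ticks and the fold as a number, against the distance from that start in kb. The interval of TOP2A begins past the start, that of DDX5 is the widest at 2366 bp, and RNASEH2A has no interval.

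The start folds spanned 10.8 times between TOP2A and RNASEH1, and the pileups 5.72 times between TOP2A and DDX5. The control level ranged from 1.37 to 3.71, and the lowest and highest of these levels belonged to RNASEH1 and TOP2A. Ranked by pileup, DDX5 came before RNASEH1, and their pileup intervals overlapped. In the order by fold, with the control level held fixed, the 95% intervals of 5 of the 7 pairs of neighbours overlapped. The interval of RNASEH1, 58.4 to 79.9, did not reach that of DDX5, 35.3 to 48.1, and the interval of RNASEH2B, 9.13 to 18.0, did not reach that of TOP2A, 4.33 to 9.05. The pileup intervals of RNASEH2B and TOP2A did overlap, at 23.5 to 47.5 and 19.4 to 41.6 fragments, with control levels of 1.69 and 3.71. The intervals overlapped for DDX5 and TOP1, TOP1 and AQR, AQR and RNASEH2C, RNASEH2C and DHX9, and DHX9 and RNASEH2B, which does not show that their folds were equal. The pileup intervals of AQR and RNASEH2C, 85.0 to 126 fragments and 44.9 to 76.1, did not overlap.

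**Figure D4:**
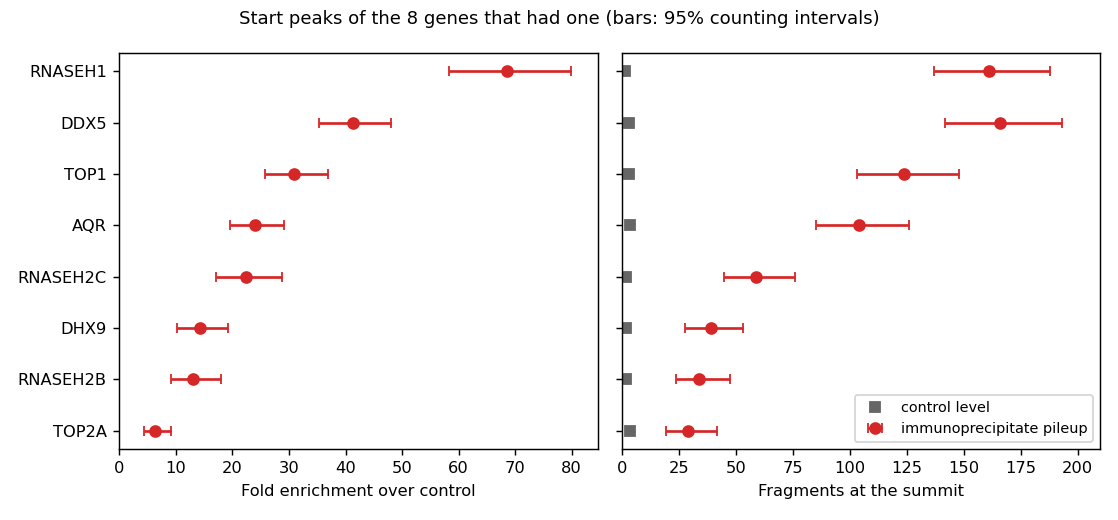
Left, fold enrichment over control, and right, fragments at the summit of the immunoprecipitate (red) and the control level (grey squares), for the start peaks of the 8 genes that had one. Bars are 95% counting intervals, and RNASEH1 leads by fold while DDX5 has the highest pileup, 166 fragments.

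The start peaks of 4 genes lay within 1 kb of a listed start of another gene as well: RNASEH1 with RNASEH1-DT, RNASEH2B with RNASEH2B-AS1, DHX9 with DHX9-AS1 and DDX5 with CEP95. Over all protein-coding genes with a start peak, 37.1% were shared in this way. At such ends a peak cannot be assigned to either gene. The summits of 3 start peaks, those of RNASEH1, AQR and RNASEH2C, were within 100 bp of a listed start, against 30.9% of the start peaks of protein-coding genes, and the median distance was 223 bp over the 8 genes and 196 bp over all. Of the 11 peaks that were not start peaks, 2 were within 1 kb of a listed start of another gene, those at KAT5 and POLG2, and 5 had a fold over 10, against 48.5% of all peaks.

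The base composition of the windows varied as widely. A G-rich nontemplate strand of transcribed DNA favours the hybrid. However, 250 of the 300 bases of each window lie before the first listed start. The values below therefore describe mostly letters upstream of the start rather than the transcribed stretch. The GC skew, the excess of G over C on the gene strand as a share of both, was 0.399 at RNASEH2C, higher than in 99.3% of windows, with 14 runs of at least 3 G. At TOP1 it was 0.186, at the 88.9th percentile, with 10 such runs. RNASEH1, which had the highest start fold, had a negative skew of -0.166, at the 11.1th percentile, and DHX9 and AQR were close to it, at -0.143 and -0.146. The median over all windows was 0.0098. R-loops were not measured in these libraries.

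Other genes that act on R-loops or with topoisomerases were taken from a list of 34, of which 29 had a listed start. A start peak was present in 26 of the 29 genes, against 64.4% of all protein-coding genes, and its fold exceeded 10 in 21, against 47.0%. The median start fold was 18.0 with genes without a peak counted as 0, and 20.7 over the 26 genes with a start peak. All 7 topoisomerases and partners with a listed start, TOP2B, TOP3A, TOP3B, TDRD3, RMI1, TDP1 and TDP2, had a start peak, with folds from 18.0 at TDP2 to 54.8 at TOP3B, each above the 6.37 of TOP2A. For TOP2B, the paralog of TOP2A that is also present in non-dividing cells, the fold was 23.6 (17.8 to 30.8), an interval above that of TOP2A. The pileups were less apart, at 53 fragments (39.7 to 69.3) for TOP2B, and their intervals overlapped. The control levels were 1.28 for TOP2B and 3.71 for TOP2A.

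Of the 13 other helicases, 12 had a start peak, and of the 9 RNA processing factors and partners, 7. The 3 highest start folds of the list were 60.3 at BLM, the helicase lost in Bloom syndrome, 54.8 at TOP3B, which acts on RNA as well as DNA, and 45.8 at ALYREF, an mRNA export adaptor. The 3 lowest were 3.44 at DDX19A, with a pileup of 10 fragments, 5.10 at PIF1, which unwinds G-quadruplexes, and 5.13 at THOC1, a subunit of the THO complex that couples transcription to export. No start peak was found at DDX47, at XAB2, which binds Aquarius in the spliceosome, or at THOC3, another THO subunit. THOC3 and DDX47 had no peak within 10 kb of the gene either, like RNASEH2A.

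**Figure D5:**
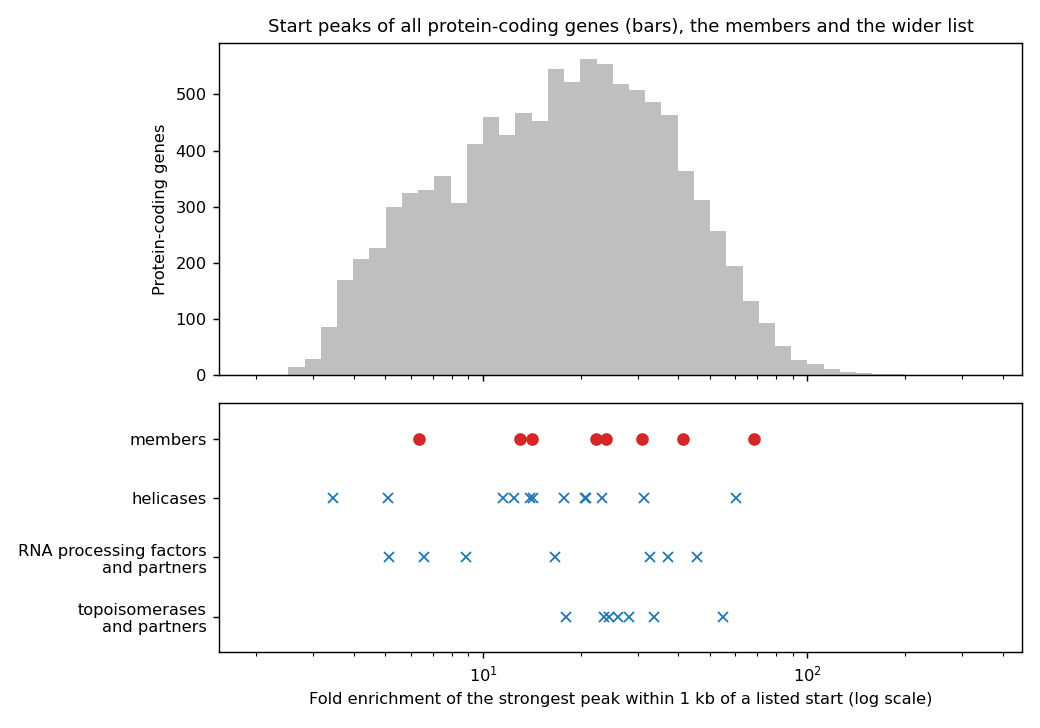
Top, number of protein-coding genes by the fold of their strongest peak within 1 kb of a listed start, on a log axis, and bottom, the same fold for the members with a start peak (red circles) and the genes of the wider list by group (blue crosses). The members run from 6.37 to 68.5 and the topoisomerases and partners from 18.0 to 54.8.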

How the data were processed

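An anti-Flag immunoprecipitate and an input, both of A549-shETV4 cells that expressed Flag-ETV4, were sequenced. The submitters' processing notes name Bowtie2 2.4.1, SAMtools, MACS2 2.2.7.1 and deepTools 3.5.0, and the build hg38. The study states a minimum fold for its peaks, and the lowest fold and −log10 q in the deposited list were 2.34 and 1.30. Alignment settings and duplicate handling were not given in the sources used here. The authors deposited 1 peak list, called on the single immunoprecipitate with no replicates pooled, with the fold enrichment as a ratio over the control level and the −log10 p-value and −log10 q-value at each summit. The deposited display score is 10 times the −log10 q-value rounded down and was not used. The input's own signal was not analysed here.

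Positions were set against RefSeq gene spans and starts (GRCh38.p14, promoter windows of 300 bases), 1-based. Of 20037 protein-coding genes, the 15843 with a listed start form the background. The deposited fold (pileup plus 1, over control plus 1) and −log10 p (Poisson, upper tail beyond the pileup) were solved together for the pileup and the control level. Pileups came out whole within 0.01 for 100% of the peaks, with a median of 26 fragments over the summits of the listed peaks. Exact Poisson intervals are on the pileup, and fold intervals hold the control level fixed. The functions were tested on simulated data. The genes named are the 9 members, genes with the end nearest to one of their summits, the 3 highest and 3 lowest of the wider list and those without a start peak there. The other topoisomerases and partners, JUNB, RTBDN-AS1, PRDX2, THSD8 and CEP95 were named after their values were seen, and the comparisons of AQR with long genes, of peaks past the 3′ end and of start peaks by motif were added then. Genes and lists were chosen with earlier results of these data known. No test between conditions was possible. Scripts ran in Python 3.11.15 with scipy 1.17.1, pandas 2.3.3, numpy 2.4.6 and, for the figures, matplotlib 3.10.9.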

Additional observations from a re-analysis of the deposited data

How the results depend on the processing

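No paired analysis was possible because there was 1 immunoprecipitate and 1 input. The count of 8 members with a peak within 10 kb of the gene was 7 when the fold had to exceed 10, without TOP2A, and 9 with a window of 20 kb, which reached the JUNB peak beside RNASEH2A; it stayed at 8 under the other alternatives, which were a fold over 5, a −log10 q of at least 10, windows of 0 and 3 kb and summits in place of intervals. The count of 8 start peaks was 7 with a fold over 10 and 8 under each other window, threshold and measure tried. The wider list gave 21 to 26 of 29 genes. The 19 peaks near the members fell to 12 with a fold over 10, and ranged from 13 within the gene spans to 26 with a window of 20 kb. In place of the median start fold of 22.3, the median pileup was 59 fragments. The 3 promoter windows with CCGGAA became 9 with GGAA and 2 with CCGGAAGT, where the shorter letters are part of the longer. AGGAAG was found in 4 windows, none of them among the 3 with CCGGAA. The absence of replicates limits each peak to 1 measurement. In the absence of a library from cells without Flag-ETV4, a peak cannot be told apart from antibody signal that does not depend on Flag-ETV4.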
